A study of Mus musculus with 4 samples.

Results

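The Schlafen family of the mouse was examined in leukaemic cells: Slfn1, Slfn2, Slfn3, Slfn4, Slfn5, Slfn8 and Slfn9, which are 7 of the 24497 mouse rows of the deposited expression table, matched by gene name. All 7 were tested. The cells were AML cells made with NRAS plus AE9a (AML1-ETO in truncated form) from marrow of wild-type mice or of Tet2-/- mice. They were kept in SCF at 50 ng/ml, IL-3 and IL-6 at 10 ng/ml each, G418 at 1 mg/mL and puromycin at 2 µg/mL, and were put into CD45.1+ recipients of 6 to 8 weeks irradiated with 900 cGy. CD45.2 donor-type cells were enriched from the spleen, and RNA was sequenced in 2 libraries labelled WT and 2 labelled Tet2 KO. NRAS, AE9a, the recipients and the enrichment were common to both groups. The labels give neither the Tet2 allele nor the number of mice behind each pair of libraries. A p-value of the main comparison rests on the spread between the 2 libraries labelled Tet2 KO and on variance shared across genes. That spread may be only technical. The WT libraries, averaged as described below, add no spread of their own to it.

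Schlafen proteins share an amino-terminal core related to RNA-cutting enzymes, and several of them bind or cleave transfer RNA. The short members (Slfn1 and Slfn2) hold little beyond that core, the intermediate members (Slfn3 and Slfn4) carry an added linker region, and the long members (Slfn5, Slfn8 and Slfn9) end in a helicase-like region. The genes are known for their induction by type I interferon and for changes in level as T cells and myeloid cells rest, divide or mature.

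The libraries held about 18.7 to 23.8 M reads (M stands for 10 to the power 6), estimated from the steps of low values, and 11300 to 11467 genes reached 1 TPM (a level corrected for transcript length and library size). Between the WT libraries the differences were close to read sampling noise: the robust variance ratio was 1.17 over 4637 genes, with 29 genes beyond 5 SD. They were averaged on the log scale and counted as 1 sample. The ratio was 8.45 between the libraries labelled Tet2 KO (n = 2). Tet2 itself was not lower under the knockout label, at 43.5 and 43.7 TPM in WT, compared with 63.7 and 68.1 TPM in Tet2 KO. A whole-gene value does not show a deleted exon, so it does not check the labels, and each direction below rests on them. ERCC spike-in RNAs, whose added amount the labels do not state, took 4.66% and 4.62% of TPM in WT, compared with 2.95% and 3.19% in Tet2 KO. Of 12 genes of leukaemic blast and myeloid identity 7 were higher and 1 lower by limma, or 9 and 1 with ERCC scaling (tests and scaling are described below). Ptprc, the CD45 gene, at 292 to 413 TPM, and the myeloid factor gene Spi1, at 508 to 662 TPM, did not pass. Of the genes of the introduced oncogenes, Nras and Runx1t1 were among the higher ones and Runx1 did not pass. Nras stood at 159 and 161 TPM in WT, compared with 276 and 356 TPM in Tet2 KO. Runx1t1, the ETO part of AE9a, stood at 31.6 and 30.9 TPM in WT, compared with 146 and 205 TPM in Tet2 KO. Runx1, the AML1 part, stood at 92.2 and 89.7 TPM in WT, compared with 98.3 and 101 TPM in Tet2 KO. These rows do not tell reads of an introduced gene from those of the mouse's own. The member called lower was the progenitor marker Cd34, at 60.6 and 60.7 TPM in WT, compared with 14.7 and 15.8 TPM in Tet2 KO. The part of these differences in the Schlafen changes was not tested.

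The members of the family did not move together. In the libraries labelled Tet2 KO all 3 long members fell steeply, the intermediate member Slfn4 rose 26.6-fold, and Slfn1, Slfn2 and Slfn3 differed by a log2 change no larger than 0.60. With the limma threshold of an adjusted p under 0.05 (Benjamini-Hochberg over 11919 genes), 5 members were lower (Slfn1, Slfn3, Slfn5, Slfn8 and Slfn9), 1 was higher and Slfn2 did not pass. Across all genes tested, 26.7% were called lower and 22.3% higher. The groups did not overlap for any member, as for 87.0% of all genes tested (48.7% with Tet2 KO lower, 38.4% with it higher). The median log2 change of the members was -0.60, against -0.11 over all genes tested, and these became -0.02 and 0.44 when TPM was scaled to the ERCC total. With that scaling 3 members were lower and Slfn4 alone was higher, beside 12.5% of all genes called lower and 41.6% called higher. When genes were tested without the filter on low values, no member passed, with limma adjusted p from 0.0586 for Slfn8, 0.0599 for Slfn2 and 0.0640 for Slfn5 to 0.221 for Slfn9 and 0.237 for Slfn3. At an unadjusted p under 0.05, 1 member was higher (Slfn4) and 4 were lower (Slfn1, Slfn2, Slfn5 and Slfn8) in that setting.

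**Figure D1:**
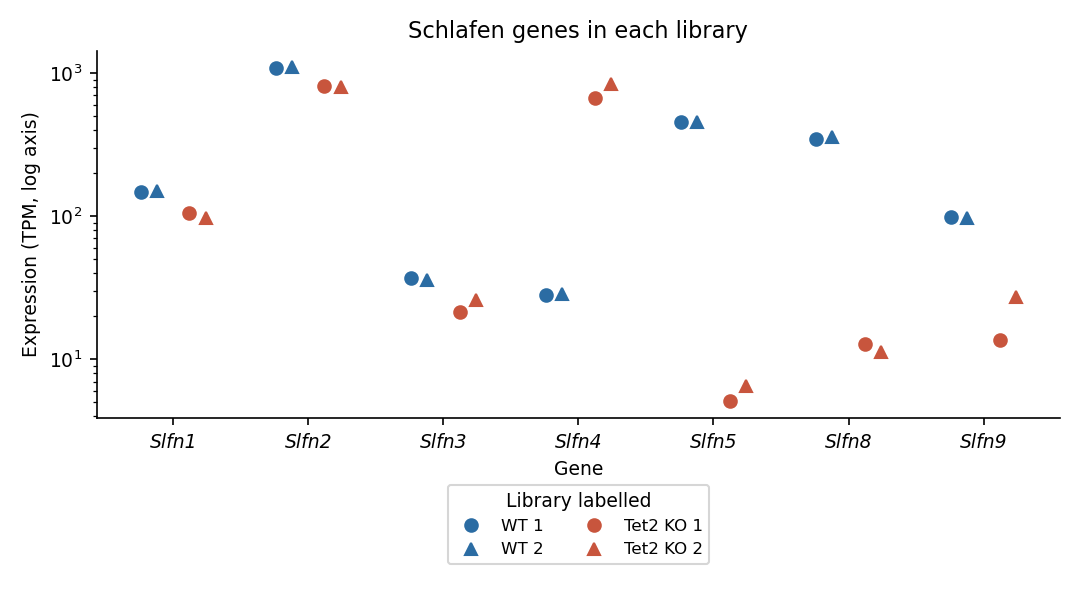
TPM (log axis) of each Schlafen gene in each library; circles are replicate 1, triangles replicate 2, blue WT and red Tet2 KO. Slfn5, Slfn8 and Slfn9 lie far lower in the libraries labelled Tet2 KO, Slfn4 lies far higher, and Slfn1, Slfn2 and Slfn3 lie slightly lower.

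All 7 genes lie in a single cluster on chromosome 11 (82951349 to 83215154 in mm10, GENCODE M21), 264 kb long. Slfn5 stands at its lower end (82951349 to 82964840, plus strand), followed by Slfn9 (82978390 to 82991830) and Slfn8 (83002158 to 83020810), both on the minus strand. Slfn2 (83065112 to 83070678), Slfn1 (83116849 to 83122670), Slfn4 (83175186 to 83190216) and Slfn3 (83191330 to 83215154) follow on the plus strand. The longest annotated coding sequences have 337 and 378 codons for Slfn1 and Slfn2, 640 and 602 for Slfn3 and Slfn4, and 884 for Slfn5. Slfn8 and Slfn9 have 910 codons each.

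Some members are close copies. The coding sequences of Slfn8 and Slfn9 were identical at 92.7% of aligned bases, as were those of Slfn3 and Slfn4 (92.7%), whereas Slfn5 shared 62.6% with Slfn8. Exact sharing over short stretches was lower: of the 75-base windows of the main Slfn8 transcript, 7.52% also occurred in a transcript of another gene, mostly the pseudogene Slfn10-ps. The share was 6.06% for Slfn9, 9.04% for Slfn3, 3.24% for Slfn4 and 0% for Slfn1. The main other gene was Slfn10-ps for Slfn9 too, and the annotated gene Gm11427 for Slfn3 (6.66%) and Slfn4 (1.39%). With 50-base windows the share was 15.4% for Slfn8, 11.4% for Slfn9, 21.8% for Slfn3 and 11.1% for Slfn4. At that length Slfn3 and Slfn4 shared most with each other, and Slfn8 and Slfn9 shared most with Slfn10-ps. Read length is not stated in the labels. The authors' estimation could move reads between any genes that share such stretches, Slfn10-ps and Gm11427 included. This makes the separate levels of Slfn8, Slfn9, Slfn3 and Slfn4 less certain than those of Slfn5 or Slfn1.

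Among the long members, Slfn5 is an interferon-induced nuclear protein gene of the helicase-bearing class. It stood at 460 and 458 TPM in WT, compared with 5.09 and 6.54 TPM under the Tet2 KO label. This was 78.9-fold lower, a log2(TPM + 1) change of -6.08 ± 0.23 (standard error from limma; adjusted p = 9.82e-12), and it ranked 24 from the bottom among the 11919 genes tested. By abundance it went from rank 311 in both WT libraries to ranks 8959 and 8731. Its lowest level still corresponds to about 371 estimated reads, so the low value does not come from a few reads. Slfn5os, annotated on the opposite strand over part of Slfn5, was listed at 0 in all 4 libraries.

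Slfn8, a long member studied mainly in T cells, stood at 350 and 356 TPM in WT, compared with 12.8 and 11.2 TPM in Tet2 KO. It was 29.3-fold lower (log2 change -4.76 ± 0.20, limma adjusted p = 3.08e-11; 65 from the bottom). Its neighbour and close copy Slfn9 stood at 99.5 and 97.7 TPM in WT, compared with 13.7 and 27.2 TPM in Tet2 KO. It was 4.83-fold lower (log2 change -2.29 ± 0.47, limma adjusted p = 0.0252). The libraries labelled Tet2 KO differed 1.99-fold from each other for Slfn9, the widest gap of any member, and 1.14-fold for Slfn8. The order of the pair also turned: Slfn8 over Slfn9 was 3.52 and 3.64 in WT and 0.941 and 0.414 in Tet2 KO. Both falls kept their sign with ERCC scaling, at -4.19 for Slfn8 and -1.72 for Slfn9.

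The RefSeq promoter windows of the long members held a sequence that those of the other members did not. The core of the interferon-stimulated response element, spelled GAAA, any 2 bases and GAAA again, was searched on both strands of these windows (GRCm38.p6, 250 bases before to 50 after a start site; all 7 members matched). It occurred in Slfn5, Slfn8 and Slfn9 and in no window of Slfn1, Slfn2, Slfn3 or Slfn4; over all 27025 genes with a window, 3.99% held it. The gamma-activated site TTCNNNGAA, which 9.55% of genes held, occurred in no member. For Slfn5 the start site used is that of its longest coding transcript, at 82952102, which lies 753 bases inside the annotated gene; the gene's outer start belongs to another transcript, and the stretch printed lies between exons of it. The stretches ahead of the start sites are printed 5′ to 3′ on the gene's strand, without annotated exons of that strand, because they show where the match lies and how alike Slfn8 and Slfn9 are. Capitals mark the match.
Slfn5 (chr11:82951852-82951984, plus strand): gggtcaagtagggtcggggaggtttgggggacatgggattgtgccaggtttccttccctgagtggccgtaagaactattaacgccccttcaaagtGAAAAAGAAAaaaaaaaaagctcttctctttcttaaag
Slfn8 (chr11:83020811-83021060, minus strand): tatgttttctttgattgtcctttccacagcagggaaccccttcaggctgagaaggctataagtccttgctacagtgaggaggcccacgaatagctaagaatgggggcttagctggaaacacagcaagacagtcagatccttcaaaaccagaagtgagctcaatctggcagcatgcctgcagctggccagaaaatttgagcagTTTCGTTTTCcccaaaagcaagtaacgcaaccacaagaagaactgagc
Slfn9 (chr11:82991831-82992080, minus strand): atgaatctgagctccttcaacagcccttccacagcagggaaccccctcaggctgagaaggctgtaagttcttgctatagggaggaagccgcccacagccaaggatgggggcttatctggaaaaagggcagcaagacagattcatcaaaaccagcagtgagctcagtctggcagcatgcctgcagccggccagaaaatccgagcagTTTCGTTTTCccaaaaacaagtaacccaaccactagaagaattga

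The Slfn8 and Slfn9 windows were identical at 84.9% of aligned bases, and both held the same match, GAAAACGAAA on the opposite strand, at positions -48 to -39 and -45 to -36 counted from the start site. Slfn8 has a second RefSeq start site, from which its match lies at positions -136 to -127. The Slfn5 match, GAAAAAGAAA, lay at positions -155 to -146 and runs into a stretch of A. A match is a description of letters, not a binding site. Among the 9116 tested genes with a window, 356 held this core, and 41.6% of these were called lower, against 25.8% of the genes without it. Of 21 tested interferon-induced genes of the list below that had a window, 16 held it.

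Slfn4, an intermediate member known from macrophages and from myeloid suppressor cells, went the other way. It stood at 28.4 and 28.8 TPM in WT, compared with 672 and 845 TPM in Tet2 KO, so it went from the lowest of the 7 members to a level that overlapped that of Slfn2, the highest. The log2 change was 4.67 ± 0.23 (limma adjusted p = 2.23e-10), 84 from the top of the genes tested, and 5.26 with ERCC scaling. Its promoter is shown for contrast with those above. It has no match to the response element core, which says only that these letters are not in this window.
Slfn4 (chr11:83174936-83175185, plus strand): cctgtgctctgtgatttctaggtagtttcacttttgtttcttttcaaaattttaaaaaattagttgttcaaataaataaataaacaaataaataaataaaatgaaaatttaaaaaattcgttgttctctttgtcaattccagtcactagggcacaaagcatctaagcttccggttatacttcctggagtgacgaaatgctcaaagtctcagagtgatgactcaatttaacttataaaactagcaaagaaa

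Slfn3, the neighbour and nearest copy of Slfn4, was described in T cells and gut epithelium. It stood at 36.9 and 35.6 TPM in WT, compared with 21.4 and 26.0 TPM in Tet2 KO, a log2 change of -0.60 ± 0.22 (limma adjusted p = 0.0373). Slfn4 over Slfn3 was 0.768 and 0.808 in WT and 31.3 and 32.5 in Tet2 KO. This ratio within a library is untouched by scaling, so the pair parted whichever scaling is used. The call for Slfn3 was lost with ERCC scaling (log2 change -0.02, limma adjusted p = 0.925), with quantile normalization (0.0550) and without trend and robust estimation (0.0831).

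The short members moved little. Slfn2, which keeps T cells and monocytes in a resting state and guards transfer RNA from cleavage, was the most abundant member in WT, at 1080 and 1098 TPM, and stood at 809 and 806 TPM in Tet2 KO. Its log2 change was -0.43 ± 0.27 (limma adjusted p = 0.194; 95% interval -0.995 to 0.135), so the data allow a fall of that lower bound as well as no fall. It passed when both WT libraries were taken as samples (limma adjusted p = 0.0106). Slfn1, which restrains T cell growth when forced, stood at 149 and 151 TPM in WT, compared with 105 and 97.9 TPM in Tet2 KO (log2 change -0.56 ± 0.20, limma adjusted p = 0.0297). With ERCC scaling both changes turned to 0.17 for Slfn2 and 0.03 for Slfn1, and neither passed. The Slfn1 call was also lost with quantile normalization, median centring and limma without trend and robust estimation, with adjusted p from 0.0577 to 0.111. The scaled Slfn2 levels were 893 and 916 in WT and 1057 and 975 in Tet2 KO. The direction of Slfn1 and Slfn2 therefore depends on the scaling, and that of Slfn3 is near 0 with ERCC. Slfn2 over Slfn1 was 7.25 and 7.27 in WT and 7.70 and 8.24 in Tet2 KO.

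**Figure D2:**
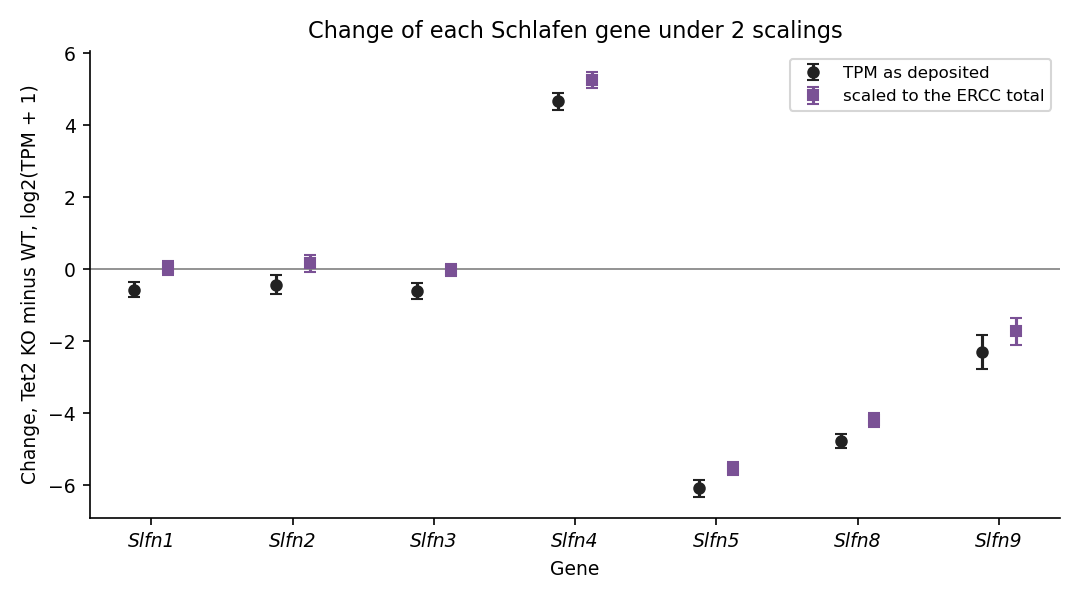
Log2(TPM + 1) change, Tet2 KO minus WT, of each Schlafen gene with its limma standard error; black circles use TPM as deposited, purple squares TPM scaled to the ERCC total. Slfn4, Slfn5, Slfn8 and Slfn9 stay on their side of 0 under both scalings, whereas Slfn1, Slfn2 and Slfn3 move to within 0.17 of 0.

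The order of the levels changed accordingly. In WT it was Slfn2, Slfn5, Slfn8, Slfn1, Slfn9, Slfn3 and Slfn4 from high to low in both libraries, with no overlap between neighbours in the order. In Tet2 KO the ranges of Slfn2 and Slfn4 overlapped at the top, Slfn1 followed, the ranges of Slfn3 and Slfn9 overlapped, and Slfn8 and Slfn5 came last without overlap. Slfn4 was under Slfn2 in replicate 1 and above it in replicate 2.

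The summed level of the 7 members was 2203 and 2225 TPM in WT, compared with 1639 and 1821 TPM in Tet2 KO. Shares of this sum do not depend on library scaling. The long members held 41.3% and 41.0% of it in WT and 1.93% and 2.47% in Tet2 KO. Slfn4 held 1.29% in both WT libraries and 41.0% and 46.4% in Tet2 KO. Slfn2 held 49.0% and 49.3% in WT and 49.4% and 44.3% in Tet2 KO. In bulk RNA, fewer cells of a type and less RNA per cell cannot be told apart.

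**Figure D3:**
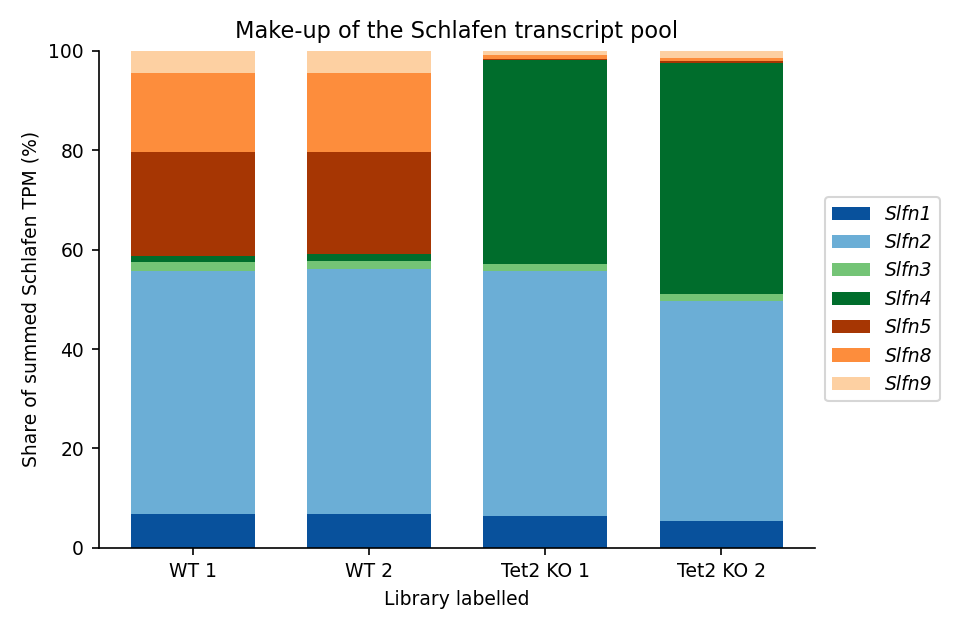
Stacked bars give the share of the summed Schlafen TPM (%) held by each gene in each library. Slfn5, Slfn8 and Slfn9 fill 41.0% to 41.3% of the WT bars and 1.93% to 2.47% of the Tet2 KO bars, where Slfn4 fills 41.0% to 46.4%.

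Other rows of the family were looked at in the same way. Slfn10-ps, a transcribed pseudogene next to Slfn8, stood at 88.9 and 89.8 TPM in WT, compared with 52.7 and 58.9 TPM in Tet2 KO (log2 change -0.67 ± 0.19, limma adjusted p = 0.00819), a call lost with ERCC scaling (-0.08). Although it shares windows with Slfn8 and Slfn9, its change was smaller than theirs. Slfn14, a platelet and erythroid member at the far side of the cluster, and the more distant Slfnl1 did not exceed 0.17 TPM in any library and were not tested.

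Genes around the cluster were then compared. Within 500 kb of its ends, 20 genes other than Schlafen genes were tested, of which 11 were called lower and 2 higher, beside 26.7% and 22.3% of all genes; with ERCC scaling 8 were lower and 5 higher, beside 12.5% and 41.6%. On the side of Slfn5, Nle1, a ribosome assembly gene, went from 20.1 and 19.0 TPM to 4.13 and 5.89 TPM (log2 change -1.79 ± 0.31, limma adjusted p = 0.000181). Rffl, a ubiquitin ligase gene, rose from 15.8 and 17.4 TPM to 43.2 and 28.3 TPM. The other 4 tested genes on that side, Zfp830, Gm11423, Lig3 and Rad51d, did not pass. These 4 were named after their values were seen. The steep fall of Slfn5 was not seen in every tested gene on that side. Nle1, the nearest tested gene, lay 42.9 kb from the cluster, and these 4 lay 60.7 to 185 kb away. A cause acting over the region was not tested. On the Slfn3 side the falls lay in the chemokine genes Ccl5, Ccl9, Ccl4 and Ccl3 and in Heatr9, with log2 changes from -4.71 for Ccl5 to -1.48 for Ccl3. Among these chemokine genes lies Ccl6, which did not pass, at 49.7 and 48.7 TPM in WT, compared with 137 and 75.5 TPM in Tet2 KO (log2 change 1.03); it was named after its values were seen. Taf15, a transcription cofactor gene between them and the cluster, had a log2 change of -1.24 ± 0.19. Ap2b1, AI662270 and Wfdc17 were also called lower, but not with ERCC scaling. The second gene called higher was the clone 1700020L24Rik, at 0.52 and 0.51 TPM in WT, compared with 7.22 and 5.24 TPM in Tet2 KO. The row of the microRNA gene Mir7679, which lies inside Slfn9 and so overlaps it, was also called lower, with 7.67 and 8.46 TPM in WT and 0 listed in both Tet2 KO libraries.

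**Figure D4:**
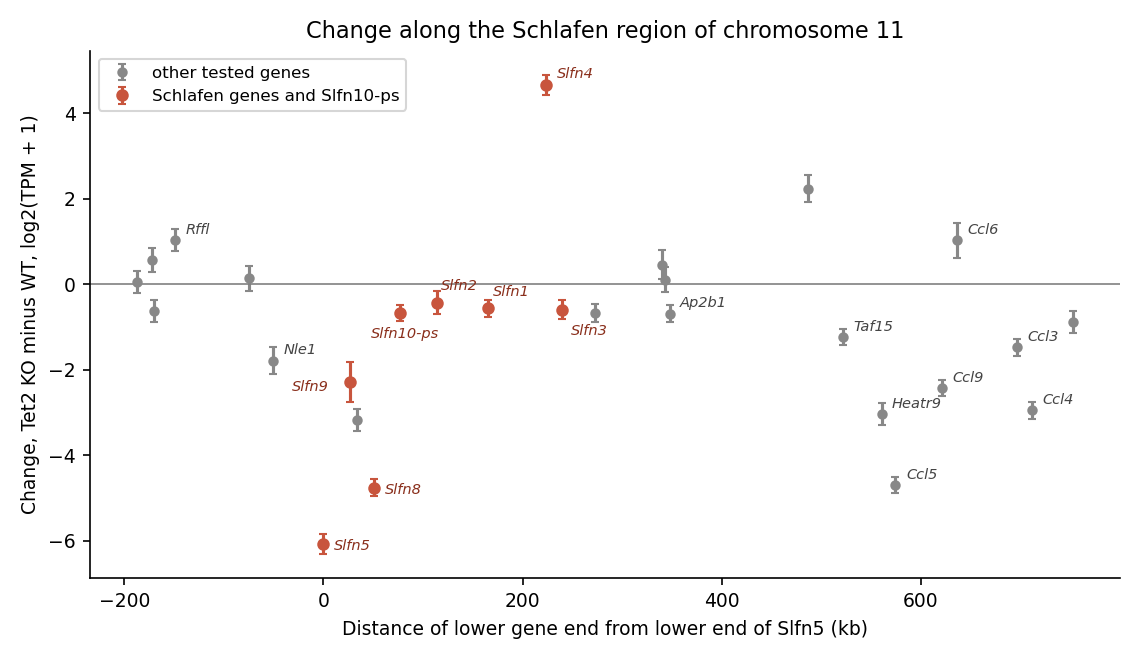
Log2(TPM + 1) change, Tet2 KO minus WT, with its limma standard error against distance (kb) along chromosome 11 from the lower end of Slfn5; red points are Schlafen genes and Slfn10-ps, grey points the other tested genes within 500 kb. Slfn5, Slfn8 and Slfn9 form a low group at the left end of the cluster, with other tested genes further left. Slfn4 stands high beside Slfn3, and a further low group holds Ccl5, Heatr9, Ccl4 and Ccl9.

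Genes of interferon signalling and interferon-induced genes were described with lists chosen with earlier results of these data known. Their part in the Schlafen changes was not tested. Of 16 tested genes of interferon signalling, 13 were lower and 0 higher by limma (1 higher at an unadjusted p under 0.05), with a median log2 change of -1.69; with ERCC scaling 9 were lower and 1 higher. Stat2, a signal carrier below the type I interferon receptor, went from 294 and 296 TPM to 20.8 and 24.3 TPM, and Usp18, a brake on the receptor, from 304 and 305 TPM to 2.78 and 3.48 TPM. Of 28 interferon-induced genes outside the family, all 27 tested were lower (median -4.93), led by the antiviral genes Mx1, Ifit3 and Rsad2. Slfn5 (-6.08) lay beyond this median, Slfn8 (-4.76) close to it and Slfn9 (-2.29) short of it. Slfn4 (4.67) went the other way, and Slfn1 (-0.56), Slfn2 (-0.43) and Slfn3 (-0.60) lay far short of this median. Over all genes tested the median was -0.11, with 26.7% called lower and 22.3% higher, or 12.5% and 41.6% with ERCC scaling.

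Genes tied to what Schlafen proteins act on moved both ways. Shares over all genes were 26.7% lower and 22.3% higher, or 12.5% and 41.6% with ERCC scaling. Beside these, of 15 genes of transfer RNA cleavage and protection, 8 were lower and 2 higher, or 2 and 5 with ERCC scaling. Among the higher ones was Ang, the angiogenin gene whose product cuts transfer RNA, at 1.19 and 1.03 TPM in WT, compared with 8.19 and 7.81 TPM in Tet2 KO. Those lower with the smallest p were Rnaset2b, the transfer RNA methylase gene Nsun2 (58.3 and 56.4 TPM to 27.0 and 30.4 TPM) and the RNA ligase gene Rtcb. The calls for Nsun2 and Rtcb were lost with ERCC scaling.

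Of 17 replication stress genes, 3 were higher (Cdt1, Wee1 and Gmnn) and 3 lower (Atr, Atrip and Rpa1), or 8 and 0 with ERCC scaling. These counts stand beside shares over all genes of 22.3% higher and 26.7% lower, or 41.6% and 12.5% with ERCC scaling. Cdt1, the replication licensing factor gene, stood at 30.8 and 25.7 TPM in WT, compared with 87.5 and 91.5 TPM in Tet2 KO. Of 21 genes of cell cycle entry and quiescence, 8 were higher and 5 lower, or 11 and 5 with ERCC scaling. The D cyclins parted: Ccnd1 went from 356 and 357 TPM to 8.26 and 12.8 TPM and Ccnd2 from 263 and 264 TPM to 19.3 and 17.6 TPM, whereas Ccnd3 rose from 25.3 and 26.7 TPM to 202 and 189 TPM. Klf2 and Tob1, genes linked to the resting state of lymphocytes, rose with log2 changes of 2.52 and 2.46, and Myc, a driver of growth, fell by 2.06.

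Markers of cell types that a spleen preparation could hold moved too. Of 12 neutrophil markers 11 were higher and 0 lower by limma (12 and 0 at an unadjusted p under 0.05), and their summed level went from 1659 to 1696 TPM in WT to 85988 to 107229 TPM in Tet2 KO, in the same libraries in which Slfn4 was high. Of 10 monocyte and macrophage markers 7 were lower and 0 higher (the same at an unadjusted p under 0.05), with sums of 4441 to 4446 TPM in WT, compared with 2387 to 2470 TPM in Tet2 KO. All 7 tested dendritic cell markers were lower, with sums of 683 to 691 TPM and 69.4 to 76.7 TPM. Of these sums Ccr7 made up 267 to 272 TPM in WT and 1.80 to 2.54 TPM in Tet2 KO. Bst2 made up 251 to 255 TPM and 12.9 to 24.5 TPM. Clec9a, Cd209a and Batf3 were at or under 0.53 TPM throughout. Of 5 tested T cell markers 2 were lower, Il7r and Cd28; the summed level was 218 to 223 TPM in WT and 24.7 to 34.3 TPM in Tet2 KO, of which Il7r made up 210 to 216 TPM and 20.9 to 25.8 TPM, while Cd3d stayed at or under 0.39 TPM. B cell markers summed to 4.05 to 9.48 TPM, with 4 of the 6 measured under 0.5 TPM in every library, and NK cell markers to 4.18 to 6.69 TPM with Ncr1 listed at 0; in each list 1 of the 2 tested was higher and 1 lower. Of 3 tested erythroid markers 2 were higher, Hbb-bt and Car1, and 0 lower (the same at an unadjusted p under 0.05 and with ERCC scaling). Erythroid markers summed to 2.44 to 4.10 TPM in WT and 25.1 to 47.6 TPM in Tet2 KO, with Hbb-bs listed at 0 throughout and Klf1 under 0.5 TPM. Of the Tet2 KO sums, Hba-a2 made up 17.45 TPM in replicate 1 and Hba-a1 made up 33.9 TPM in replicate 2. Each was listed at 0 in the other Tet2 KO replicate, and Hba-a1, the third tested, did not pass. With ERCC scaling 12 neutrophil markers were higher, while 6 monocyte and macrophage, 5 dendritic cell and 1 T cell markers were lower. No marker of these lists was called the other way with that scaling. Shares over all genes were 22.3% higher and 26.7% lower, or 41.6% and 12.5% with ERCC scaling. The part of these markers in the Schlafen changes was not tested.

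The genes whose profile over the 4 libraries was nearest to that of each member were listed by the root mean square distance between log2(TPM + 1) values, each centred on its own mean. The 4 libraries form 2 groups, so the likeness rests mostly on the difference between the groups. Nearest to Slfn5 were Ifit1 (distance 0.03; 633 and 640 TPM in WT, 7.17 and 8.93 TPM in Tet2 KO), Usp18 and Ifi47. Nearest to Slfn8 were Gm4951, Ccl5 and 4922502D21Rik. Gm4951 stood at 26.9 and 28.1 TPM in WT, compared with 0.1 and 0 TPM in Tet2 KO. 4922502D21Rik stood at 27.0 and 30.6 TPM, compared with 0.12 and 0 TPM. Unlike Slfn8, these lay near 0 in Tet2 KO, where the 1 added to TPM limits the log2 change. Nearest to Slfn9 were H2-Ab1 (0.03), Cd74 (0.06) and Tubb3 (0.06). The H2-Ab1 levels, 953 and 982 TPM in WT, compared with 142 and 265 TPM in Tet2 KO, were higher in Tet2 KO replicate 2 than in replicate 1, as for Slfn9. Nearest to Slfn4 were Wfdc21 (0.07; 10.3 and 9.64 TPM in WT, 267 and 299 TPM in Tet2 KO), Slc22a4 and Lbp. The members that moved little had nearer genes: Mapkapk3 and Iqgap1 (0.0089 and 0.011) and 1810043G02Rik for Slfn1, Abracl, Phc3 and Capza2 for Slfn2, and Zfp664, Cog6 and Ccdc58 for Slfn3.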

How the data were processed

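A stranded mRNA kit was used on total RNA, per the labels. The values are TPM as deposited by the authors; the submitters' processing notes name STAR, RSEM and mm10 and give no versions, and the gene annotation and strand setting are not given in the sources used here. TPM states no depth; depth was estimated from the steps of low values of genes with a single transcript, and is approximate. The 92 ERCC rows were left out of tests.

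The WT libraries were averaged as 1 sample on log2(TPM + 1), following earlier processing of these data, and compared with 2 Tet2 KO samples by limma 3.58.1 in R 4.3.3 (trend, robust; 1 residual degree of freedom; genes with at least 1 TPM in 2 libraries; two-sided). TPM fold changes are ratios of means; log2 changes understate low genes. Coordinates come from GENCODE M21 and promoters from RefSeq (GRCm38.p6). Sequences were aligned with Biopython 1.88.

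Named genes follow a rule: all members, other Slfn rows, Tet2, up to 3 genes per list and direction with the smallest p, called neighbours within 500 kb, and the 3 nearest profiles per member. Markers and other exceptions are lists or are stated. The members, lists and rule were chosen with earlier results of these data known. 14 alternative settings were run. A protein comparison planned for the members was not run.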

Additional observations from a re-analysis of the deposited data

How the results depend on the processing

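Slfn4, Slfn5, Slfn8 and Slfn9 kept their direction under all 14 alternatives and their call under 13. The exception was testing without the filter on low values, where limma called 0 members higher and 0 lower (1 and 4 at an unadjusted p under 0.05; adjusted p from 0.0586 for Slfn8 to 0.237 for Slfn3) and 121 and 288 of all 18594 genes; the cause was not tested. With ERCC scaling 3 members were lower, all genes stood at 4964 higher and 1489 lower, and the changes of Slfn1 and Slfn2 reversed to 0.033 and 0.17. Quantile normalization and limma without trend and robust estimation each left 3 members lower, without Slfn1 and Slfn3. Leaving out a library in turn gave 1 member higher and 5 to 6 lower, and 2651 to 4321 of all genes higher and 3192 to 5674 lower; the fits without Tet2 KO replicate 1 (4321 and 4987) or replicate 2 (3974 and 5674) also took both WT libraries as samples, because no residual degree of freedom was left otherwise, and stand beside 3520 and 4517 with all 4 libraries taken as samples. Slfn2 passed, as the sixth lower member, in those fits and with both WT libraries as samples (adjusted p = 0.0106). The correlation of replicate differences between groups was -0.011 across 11919 genes. It cannot decide whether the replicate numbers pair the samples, because the WT libraries differed by close to read sampling noise. With the replicate block, 3495 genes were higher and 4461 lower, 1 member was higher and 6 were lower. Low depth did not limit the members, whose smallest estimate was about 371 reads.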
